A study of Mus musculus with 18 samples.

Results

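The genes named Spata (spermatogenesis associated) and Tex (testis expressed) were followed through the RNP and polysome fractions of mouse spermatogenic cells. They share a naming convention and not a common ancestor, and their products range from meiotic recombination factors to parts of the sperm neck. Every protein-coding gene of the annotation (GENCODE vM1, on mm9) whose symbol is Spata or Tex followed by a number, with an optional ending, was taken, except Spata19 and Tex12. This gave 35 members of the 22284 protein-coding genes, 17 Spata and 18 Tex. The rule uses no measured value. *Tex28* was not assembled in any library. *Spata2L* was at 0 in 15 of the 18 libraries and did not pass the filter, so 33 members were among the 14535 genes tested. *Spata5l1* is annotated as noncoding, and *Spata33* and *Tex40* are not symbols of this annotation.

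All mice were adult wild-type animals, C57BL/6 in the labels and C57BL/6 J in the methods. Their pachytene spermatocytes, round spermatids and elongating spermatids were separated by sedimentation (STA-PUT), with cycloheximide in the buffers of every group, and the lysates were run on sucrose gradients. Stranded RNA libraries were made from the polysome fractions and from the light RNP fractions, 3 for each of the 6 combinations of stage and fraction. The cells of several testes were pooled for a purification, and the elongating preparation, judged the least pure by cell morphology, may include elongated cells. The sources used here do not say which libraries share a purification, so the p-values measure the spread between these 18 libraries, part of which may be technical.

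Pachytene spermatocytes are in the long prophase of the first meiotic division, and they give rise to haploid round spermatids, which reshape into elongating spermatids with a condensed nucleus, an acrosome and a tail. Transcription stops as the nucleus condenses. Many mRNAs of the last steps are therefore made earlier, held free of ribosomes in ribonucleoprotein particles (RNPs), and moved to polysomes, that is to mRNAs carrying several ribosomes, when their protein is needed.

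The level of a gene is given as scaled FPKM. FPKM is the number of fragments per kilobase of transcript, relative to the size of the library, here summed over the assembled transcripts that share a splice junction with the gene and divided by a factor for each library that sets the median gene equal. A 0 means that no spliced transcript was assembled, not that the RNA was absent. The files hold no read counts, so the depth is unknown. The coverage per unit of FPKM, which rises with depth and read length, was 1.20 to 2.26. Differences are on the scale log2(scaled FPKM + 1), which understates changes of low genes, and carry the standard error (SE) of 1 limma model over all 18 libraries. A member was called changed at an adjusted p (Benjamini-Hochberg over the 14535 genes, two-sided) under 0.05.

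The round polysome and round RNP libraries numbered 2 went against their label. Their correlation with the other libraries of their group was 0.469 to 0.622 over all tested genes, against 0.832 and 0.838 between the other round libraries. The summed level of the 8 measured Sertoli cell markers was 1255 and 1023 scaled FPKM in these libraries, with none at 0, against 23.9 to 64.2 in the other 4 round libraries, where 2 to 6 were at 0. Their 8 round spermatid markers summed to 65.0 and 73.6, against 578 to 904, and their 8 elongating spermatid markers to 87.8 and 100.02, against 1085 to 5361. Pachytene RNP library 2 stood in the same direction, with 1328 for the Sertoli markers and 66.7 for the elongating markers. The 7 spermatogonia markers were also high there, with sums of 377 and 398 in the round libraries numbered 2, against 49.8 to 167 in the other 4, and 205 in pachytene RNP library 2. The stage comparisons below are therefore also given without both round libraries numbered 2. That leaves the difference of an elongating and a pachytene group as it is and changes the spread shared by the fit and the genes tested, 14152 in place of 14535.

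The 35 members lie on 15 chromosomes, 6 of them on chromosome 11 and 5 on the X chromosome (*Tex11*, *Tex13*, *Tex13a*, *Tex16* and *Tex28*). Cufflinks assembled 1042 transcripts of 34 members in the 18 libraries, and 421 of these had exactly the introns of an annotated mRNA. 24 members were assembled in every library. Only *Tex19.1*, *Tex19.2* and *Spata13* share any run of 50 bases with the mRNA of another coding gene. *Tex19.1* (chr11:121007457-121009633 in mm9, plus strand), a germ cell factor against retrotransposons that binds the ubiquitin ligase UBR2, and its neighbour *Tex19.2* (chr11:120977529-120979991, minus strand) have coding sequences of 76.7% identity over 954 aligned bases. They shared 50 runs of 50 bases, 2.95% of those of *Tex19.1* and 2.50% of those of *Tex19.2*. The splice junctions on which both genes were counted are shown as sites where the copies differ, with the end of the upstream exon in lower case and the start of the downstream exon in capitals.
Tex19.1 exon 1 to exon 2: cgctcagtcagggagCTCCCCATATATTGG
Tex19.2 exon 1 to exon 2: cgctcagtcagggagCTCTCCAGACATTGG
Tex19.1 exon 2 to exon 3: tacttcttcagagagCCTCTGTGGTTCTGT
Tex19.2 exon 2 to exon 3: tacttctccagagagCCTCTATGGTCCTAC
The 2 genes differ at 3 of 30 bases across the first junction and at 5 of 30 across the second. The second junction of *Tex19.1* and both junctions of *Tex19.2* were assembled in all 18 libraries, and the first junction of *Tex19.1* in 12.

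The mean level of the 34 assembled members over the 18 libraries ran from 0.639 scaled FPKM for *Spata2L* to 219 for *Spata24*. The 12 highest members were *Spata24*, *Spata4*, *Tex101*, *Spata20*, *Spata21*, *Spata6*, *Spata16*, *Tex21*, *Tex2*, *Spata7*, *Spata1* and *Tex15*. Sorted by the stage with the highest mean level, taking both fractions with equal weight, 4 members peaked at the pachytene stage, 10 at the round stage and 20 at the elongating stage. Of the 33 tested members 20 (60.6%) were highest in elongating spermatids, against 37.8% of all tested genes. Within that class the RNP mean was the higher of both fractions for 16 members and the polysome mean for 4 (*Spata16*, *Tex10*, *Tex21* and *Tex9*). With FPKM as deposited, not scaled between libraries, the polysome mean was the higher one for 15 and the RNP mean for 5. This split was not computed over all genes of the class. Without both round libraries numbered 2 the classes held 8, 7 and 19 members, and 9 members changed class. *Spata2*, *Tex101*, *Tex11* and *Tex19.1* then went to pachytene, *Tex13* and *Tex16* to elongating, and *Spata1*, *Spata16* and *Tex24* to round.

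**Figure D1:**
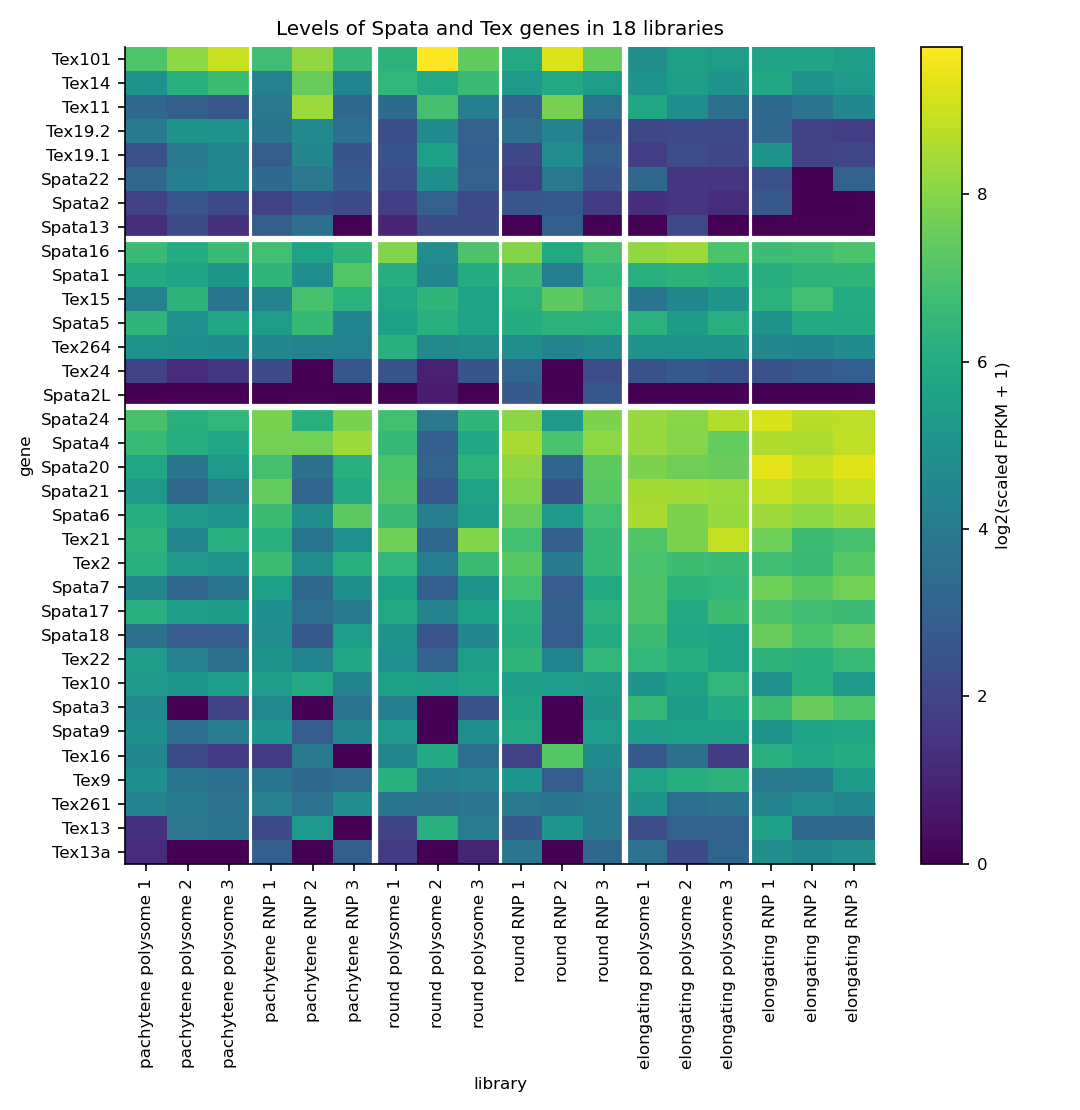
Levels of the 34 assembled members (rows) in each of the 18 libraries (columns), as log2(scaled FPKM + 1), with 3 libraries for each stage and fraction. White lines part the rows by stage of highest mean level (pachytene 8, round 7 and elongating 19 members, both round libraries numbered 2 left out of this sorting), and the columns of round libraries numbered 2 can be seen to differ from their neighbours.

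Elongating spermatids were first set against pachytene spermatocytes. In polysomes 2 of 33 members passed the test, against 3.91% of all genes. *Spata6* rose (2.64% of all genes rose) and *Tex19.2* fell (1.28% fell). In RNPs no member passed with limma, against 3.08% of all genes, and 12 had an unadjusted p under 0.05 (20.2% of all genes). Without both round libraries numbered 2, 15 members passed in polysomes (13 higher and 2 lower, against 13.9% of all genes, 8.97% higher and 4.89% lower) and 12 in RNPs (11 higher and 1 lower, against 11.4%, 8.43% higher and 2.96% lower). With only round polysome 2 left out 5 members passed in polysomes (6.72% of all genes) and 3 in RNPs (4.98%), and with only round RNP 2 left out 8 (7.74%) and 6 (6.64%). In RNPs 1 member passed without pachytene RNP 1 (3.95% of all genes), 2 without round RNP 1 (4.07%) and 1 without round RNP 3 (2.87%). The values of 18 members were higher in all 3 elongating polysome libraries than in any pachytene polysome library, against 20.2% of all genes, and those of 4 were lower, against 18.3%. In RNPs these counts were 14 (15.6% of all genes) and 2 (9.65%). The median difference of the members was 0.97 in polysomes and 0.88 in RNPs, where the medians of all genes were -0.01 and 0. In bulk samples fewer cells of a type and less RNA per cell cannot be told apart.

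*Spata6* (chr4:111392589-111501789, plus strand) encodes a protein needed to build the connecting piece between sperm head and tail. It had 369, 229 and 304 scaled FPKM in elongating polysomes, against 66.4, 36.9 and 32.7 in pachytene polysomes. All 3 elongating libraries lay above all 3 pachytene libraries, and the log2 difference was 2.74 ± 0.70 (SE, n = 3 each, limma adjusted p = 0.0396). In RNPs it had 319, 277 and 339 in elongating spermatids, against 100.1, 27.1 and 157 in pachytene spermatocytes, a difference of 2.02 ± 0.70 (limma adjusted p = 0.123). The call in polysomes was lost when any 1 of the 6 libraries compared, round polysome 3, round RNP 3 or any elongating RNP library was left out (limma adjusted p 0.051 to 0.14), and held for the other 7 libraries left out in turn.

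Other members with their highest level in elongating spermatids did not pass the test with all libraries, but several did without both round libraries numbered 2. *Spata21* had 344, 342 and 314 scaled FPKM in elongating polysomes, against 36.9, 8.22 and 18.1 in pachytene polysomes, and 469, 399 and 489.9 in elongating RNPs, against 174, 8.19 and 58.2 in pachytene RNPs. Its difference in polysomes, 4.15 ± 1.32, was the largest of any member and had a limma adjusted p of 0.0843 (0.00632 without both round libraries numbered 2). *Spata20*, whose protein has a thioredoxin-like domain, had 229, 199 and 183 in elongating polysomes, against 53.7, 12.6 and 37.9 in pachytene polysomes. In RNPs it had 661, 481 and 617 in elongating spermatids, against 116, 11.1 and 70.5 in pachytene spermatocytes, and the difference there was 3.64 ± 1.18 (limma adjusted p = 0.102, or 0.0068 without both round libraries numbered 2). Both genes were low in pachytene RNP library 2 and several times higher in pachytene RNP libraries 1 and 3.

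*Spata18* encodes Mieap, a mitochondrial quality control protein. It had 103, 54.8 and 48.9 scaled FPKM in elongating polysomes, against 11.001, 5.96 and 6.18 in pachytene polysomes, and 186, 128 and 171 in elongating RNPs, against 26.9, 5.71 and 42.1 in pachytene RNPs. The groups did not overlap in either fraction, with a difference of 2.97 ± 0.85 in polysomes (limma adjusted p = 0.0594 in polysomes and 0.063 in RNPs, or 0.00481 and 0.00615 without both round libraries numbered 2). *Spata7*, known from the connecting cilium of photoreceptors, had 129.7, 78.8 and 87.4 in elongating polysomes, against 22.2, 8.41 and 12.4 in pachytene polysomes, a difference of 2.77 ± 0.88 (limma adjusted p = 0.0848, or 0.00482 without both round libraries numbered 2). *Spata3* was not assembled in pachytene polysome 2 or pachytene RNP 2. It had 89.4, 39.4 and 62.1 in elongating polysomes, against 22.9, 0 and 2.80 in pachytene polysomes, and 105, 183 and 135 in elongating RNPs, against 24.6, 0 and 12.7 in pachytene RNPs.

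*Spata24* had 302, 260.0 and 396 scaled FPKM in elongating polysomes, against 120.1, 71.1 and 88.1 in pachytene polysomes, a difference of 1.78 ± 0.78 (limma adjusted p = 0.198, or 0.0174 without both round libraries numbered 2). *Spata16*, whose protein acts in acrosome formation, had 292, 325 and 128 in elongating polysomes, against 98.9, 63.0 and 98.5 in pachytene polysomes, and its RNP levels overlapped between these stages. *Tex2*, a lipid transfer protein of the endoplasmic reticulum, had 123, 106 and 99.042 in elongating polysomes, against 71.2, 36.2 and 33.4 in pachytene polysomes. All 3 elongating libraries lay above the pachytene libraries, with a difference of 1.28 ± 0.77 (limma adjusted p = 0.352). *Tex21* had 139, 225 and 464 in elongating polysomes, against 80.6, 20.6 and 68.6 in pachytene polysomes, and reached 201, 8.77 and 244 in round polysomes.

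The 8 elongating spermatid markers were higher in the same libraries. Their summed level was 9416, 4799 and 6290.0 scaled FPKM in elongating polysomes, against 919, 49.1 and 218 in pachytene polysomes, and 45835, 15342 and 12683 in elongating RNPs, against 2935, 66.7 and 1468 in pachytene RNPs. At most 1 of the 8 was at 0 in any of these libraries. In elongating polysome 1 Prm1 and Prm2 had the same value, 846, and the 9416 holds it for both. In pachytene polysome 1 both had 116, and the 919 holds that for both. Pachytene RNP libraries 1 and 3 had the highest marker sums of the pachytene libraries, and also the highest pachytene levels of *Spata6*, *Spata18*, *Spata20* and *Spata21*. The part of such RNA in the levels of the pachytene libraries was not tested. The 7 measured pachytene spermatocyte markers summed to 1721, 1757 and 961 in pachytene polysomes, against 648, 669 and 645 in elongating polysomes. In RNPs the order was the reverse, with 578, 653 and 340 in pachytene spermatocytes, against 978, 914 and 858 in elongating spermatids. Of these markers Hspa2 was at 0 in every pachytene library except RNP 3, and at 151 to 254 in elongating libraries.

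**Figure D2:**
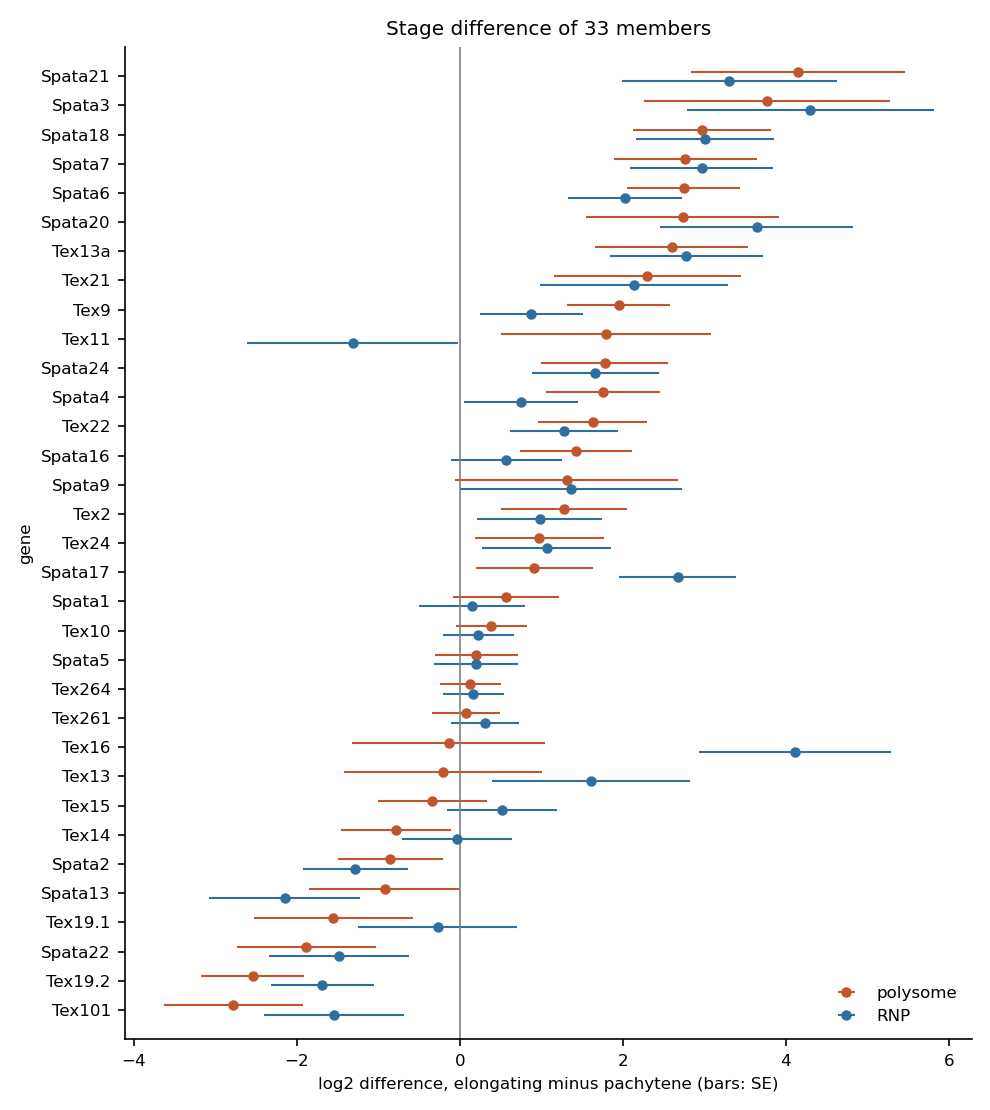
Log2 difference between elongating spermatids and pachytene spermatocytes for the 33 tested members, in polysomes and in RNPs (points: limma estimate on log2(scaled FPKM + 1), bars: SE, n = 3 libraries a group). *Spata21* had the largest difference in polysomes and *Spata3* in RNPs, and *Tex101* and *Tex19.2* had the lowest in polysomes.

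*Tex19.2* had 3.28, 3.46 and 3.45 scaled FPKM in elongating polysomes, against 15.1, 32.3 and 30.1 in pachytene polysomes. The groups did not overlap and the difference was -2.54 ± 0.63 (limma adjusted p = 0.0353). In RNPs it had 8.44, 2.78 and 2.39 in elongating spermatids, against 12.9, 23.5 and 10.8 in pachytene spermatocytes, a difference of -1.68 ± 0.63 (limma adjusted p = 0.149, or 0.0422 without both round libraries numbered 2). The call in polysomes was lost without pachytene polysome 2, without pachytene polysome 3 or without any of the 3 elongating polysome libraries (limma adjusted p 0.095 to 0.14). Its copy *Tex19.1* had 2.42, 3.92 and 3.32 in elongating polysomes, against 4.42, 13.9 and 21.6 in pachytene polysomes, a difference of -1.55 ± 0.97 (limma adjusted p = 0.373). In elongating RNPs it had 32.5, 2.72 and 3.24, so 1 library stood far above the other two.

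*Tex101*, a GPI-anchored protein of the germ cell surface needed for the maturation of the sperm protein ADAM3, had 27.3, 47.1 and 39.7 scaled FPKM in elongating polysomes, against 133, 271 and 489 in pachytene polysomes. The groups did not overlap, with a difference of -2.77 ± 0.86 (limma adjusted p = 0.0757, or 0.00716 without both round libraries numbered 2). Its highest values were those of the round libraries numbered 2, with 78.8, 866 and 165 in round polysomes and 59.5, 607 and 177 in round RNPs. *Spata22*, which acts with MEIOB in meiotic recombination, had 8.82, 1.94 and 1.75 in elongating polysomes, against 8.39, 16.9 and 22.6 in pachytene polysomes, and the groups overlapped. *Tex14*, a protein of the bridges that join germ cells, had 32.3, 42.5 and 32.2 in elongating polysomes, against 30.5, 72.6 and 104 in pachytene polysomes, and 54.6, 30.9 and 36.8 in elongating RNPs, against 17.9, 179 and 20.2 in pachytene RNPs. Both pairs of *Tex14* groups overlapped.

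*Spata2*, the adaptor between the deubiquitinase CYLD and the LUBAC ubiquitin ligase, was low throughout. It had 1.48, 1.86 and 1.44 scaled FPKM in elongating polysomes, against 2.69, 5.07 and 3.57 in pachytene polysomes, which did not overlap, with a difference of -0.85 ± 0.64 (limma adjusted p = 0.467). *Spata13*, an exchange factor for Rac1 and Cdc42, was not assembled in 8 of 18 libraries, among them all 3 elongating RNP libraries. In pachytene RNPs it had 6.35, 10.9 and 0. The 8 Sertoli markers were also lower in elongating spermatids. Their sum was 14.6, 17.9 and 19.003 in elongating polysomes (4 or 5 of 8 at 0), against 77.4, 486 and 631 in pachytene polysomes (0 or 1 at 0), and 19.8, 18.3 and 17.5 in elongating RNPs (4 or 5 at 0), against 234, 1328 and 108 in pachytene RNPs (0 to 3 at 0). *Clu* alone had 36.6, 315 and 435.5 in pachytene polysomes and 188, 1129 and 65.6 in pachytene RNPs. The 7 spermatogonia markers summed to 68.7, 67.0 and 112 in elongating polysomes (0 to 2 at 0), against 59.0, 171 and 164 in pachytene polysomes (0 or 1 at 0), and to 83.9, 50.3 and 36.3 in elongating RNPs (1 or 2 at 0), against 72.5, 205 and 56.0 in pachytene RNPs (0 to 4 at 0). *Tex19.1*, *Tex19.2*, *Tex101*, *Tex11*, *Tex14*, *Spata2* and *Spata13* were each highest, within pachytene RNPs, in library 2, which also had the highest Sertoli sum. Within pachytene polysomes *Tex19.1*, *Tex19.2*, *Tex101*, *Tex14* and *Spata2* were each lowest in library 1, as was the Sertoli sum. *Tex11* was highest in that library. The part of other cells in these levels was not tested.

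**Figure D3:**
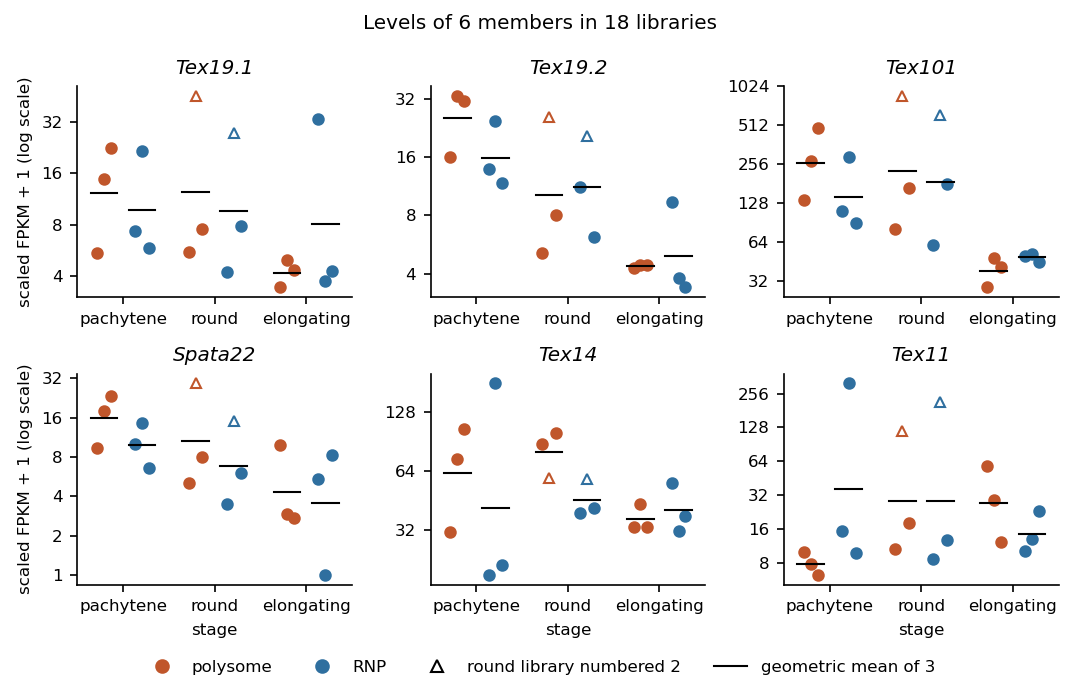
Levels of 6 members in each library by stage, on a log axis of scaled FPKM + 1, with polysome libraries in orange and RNP libraries in blue (lines: geometric mean of 3 libraries). The open triangles are the round libraries numbered 2, which lie above the other round libraries of their fraction for *Tex19.1*, *Tex19.2*, *Tex101*, *Spata22* and *Tex11*.

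For a few members, 3 of them X-linked, the assembly is given beside the level. A gene assembled in separate pieces is counted once for each piece in a sum of FPKM. In all, 23 members were in more than 1 piece in at least 1 library. Among them were *Tex14* (17 libraries), *Spata17* (14), *Spata18* (9, with 0 annotated intron chains) and *Tex9* (9). The scaled FPKM of these members given elsewhere are sums of this kind. *Tex11*, a meiotic crossover factor, had 14.6, 315 and 8.85 scaled FPKM in pachytene RNPs, 9.75, 117 and 17.1 in round polysomes and 7.65, 213 and 11.9 in round RNPs. The values above 100 come from pachytene RNP 2 and the round libraries numbered 2, where it was assembled in 3 or 4 pieces. With transcripts weighted by length these 3 values were 79.2, 28.4 and 74.7, and the highest of the other 15 libraries was 12.4. In elongating polysomes it had 57.4, 27.9 and 11.3 scaled FPKM, against 9.03, 6.85 and 5.29 in pachytene polysomes, and 4.42, 4.24 and 3.19, against 1.48, 5.74 and 4.26, with weighting by length. *Tex16* had 5.46, 11.015 and 2.23 in elongating polysomes and 70.8, 53.5 and 63.9 in elongating RNPs. With weighting by length these became 2.33, 3.55 and 2.33 in polysomes and 6.80, 6.64 and 5.94 in RNPs, still without overlap. *Tex15*, which acts in meiotic break repair and in piRNA-directed silencing of transposons, had 13.0, 21.6 and 32.7 in elongating polysomes and 74.9, 111 and 64.0 in elongating RNPs, and was assembled in more than 1 piece in 14 libraries. *Tex13* had 3.89, 7.24 and 7.25 in elongating polysomes and 47.6, 9.15 and 8.66 in elongating RNPs.

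The levels of several members with general cell functions lay closer together. *Tex10*, a part of the rixosome of ribosome assembly, lay between 20.3 and 84.2 scaled FPKM in all 18 libraries. *Spata5*, an AAA ATPase of ribosome maturation, lay between 20.2 and 91.3. *Tex264*, a receptor for the autophagy of endoplasmic reticulum, lay between 18.4 and 71.5 and *Tex261* between 10.6 and 32.3. Their differences between elongating and pachytene polysomes were 0.39 ± 0.44 for *Tex10*, 0.21 ± 0.51 for *Spata5*, 0.13 ± 0.37 for *Tex264* and 0.08 ± 0.42 for *Tex261*, all smaller than their SE.

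Of the other members, *Spata17* had 129.9, 61.1 and 104 scaled FPKM in elongating polysomes, against 70.9, 43.8 and 38.5 in pachytene polysomes, and 129, 109 and 102 in elongating RNPs, against 28.5, 10.5 and 15.7 in pachytene RNPs. Its difference in RNPs was 2.67 ± 0.72 (limma adjusted p = 0.0541, or 0.00204 without both round libraries numbered 2). *Spata1* had 68.4, 77.9 and 67.2 in elongating polysomes, against 61.1, 51.0 and 34.8 in pachytene polysomes, a difference of 0.56 ± 0.65. *Tex22* had 87.8, 66.6 and 48.8 in elongating polysomes, against 40.8, 18.8 and 11.2 in pachytene polysomes, a difference of 1.63 ± 0.66 (limma adjusted p = 0.172, or 0.0288 without both round libraries numbered 2). *Tex24* was low, at 0 to 8.09 over all libraries. *Spata2L* was assembled only in round spermatids, at 0.686 in polysome library 2 and at 5.63 and 5.18 in RNP libraries 1 and 3.

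Round spermatids were then set between both other stages. Elongating against round spermatids gave no called member with limma in polysomes (0.323% of all genes passed) or in RNPs (0.427%), with 11 members at an unadjusted p under 0.05 in each fraction (14.0% and 11.5% of all genes). The values of 13 members were above all round polysome libraries in elongating polysomes (13.1% of all genes) and those of 6 were below (12.2%). In RNPs these counts were 11 (9.15%) and 2 (7.79%). Round against pachytene gave no called member with limma in polysomes (0.0826% of all genes) or RNPs (0% of all genes), with 0 and 1 members at an unadjusted p under 0.05 (6.65% and 5.92% of all genes). In polysomes 1 member lay above all pachytene values (5.68% of all genes) and 0 below (5.86%), and in RNPs 0 lay above (2.88%) and 0 below (2.68%). Without both round libraries numbered 2 limma called no member in these 4 comparisons either (0.17% and 0.134% of all genes for elongating against round in polysomes and RNPs, 0.332% and 0.339% for round against pachytene), with 6, 1, 7 and 10 members at an unadjusted p under 0.05 (8.95%, 6.97%, 13.6% and 15.8% of all genes). The median difference of round minus pachytene over the members was then 0.62 in polysomes and 0.90 in RNPs, and 0.21 and 0.27 with all libraries (0.06 and 0.09 over all genes). The values of *Spata6* show the spread. It had 99.3, 17.3 and 42.8 scaled FPKM in round polysomes and 181, 38.0 and 111 in round RNPs, with the library numbered 2 lowest in each group. *Spata9* was not assembled in either round library numbered 2 and had 41.9, 44.0 and 47.1 in elongating polysomes, against 36.8, 0 and 28.0 in round polysomes.

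Polysomes were compared with RNPs within each stage. No member was called with limma in pachytene spermatocytes (0.186% of all genes passed), round spermatids (0.172%) or elongating spermatids (0.461%). At an unadjusted p under 0.05 there were 1, 1 and 3 members (7.25%, 6.63% and 9.15% of all genes). Without both round libraries numbered 2 limma called none either (0.389%, 0.205% and 0.629% of all genes), with 5, 4 and 7 members at an unadjusted p under 0.05 (10.9%, 9.79% and 12.3% of all genes). In pachytene spermatocytes 2 members had all polysome values above all RNP values (6.69% of all genes) and 1 below (3.84%). In round spermatids these counts were 2 (4.15%) and 1 (4.4%). In elongating spermatids they were 3 above (14.4%) and 11 below (9.85%). The 3 above were *Tex264*, *Spata16* and *Tex9*, and the 11 below were *Spata3*, *Spata4*, *Spata7*, *Spata18*, *Spata20*, *Spata21*, *Spata24*, *Tex13*, *Tex13a*, *Tex15* and *Tex16*. The median difference over the members was -0.05, -0.16 and -0.17 in the 3 stages, where that of all genes was 0.18, 0.06 and 0.02. These differences are relative to the median gene. With FPKM as deposited the median of all genes was 1.01, 0.65 and 0.71, and only *Spata17* and *Tex264* were called, both higher in pachytene polysomes, against 6.79% of all genes. Of the 11 members below, *Spata4*, *Spata21* and *Spata24* then had positive differences in elongating spermatids (0.16, 0.47 and 0.32), and *Spata7* was at -0.01.

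*Spata4* (chr8:55686134-55695451, plus strand) was the only member with lower polysome than RNP values and no overlap in every stage. In pachytene spermatocytes it had 96.6, 67.2 and 53.3 scaled FPKM in polysomes, against 208, 207 and 317 in RNPs. In round spermatids it had 92.9, 6.59 and 55.9 in polysomes, against 355, 123 and 270.1 in RNPs. In elongating spermatids it had 306, 254 and 176 in polysomes, against 383, 376 and 454 in RNPs. The differences were -1.75 ± 0.70, -2.74 ± 0.70 and -0.75 ± 0.70 (limma adjusted p = 0.577, 0.276 and 0.884). Averaged over the 3 stages, a comparison added after these values were seen, the difference of *Spata4* was -1.75 ± 0.40 (limma adjusted p = 0.0398), and it was the only member called, against 1.8% of all genes (0.784% lower). The call was lost when 1 library was left out for 14 of the 18 libraries (all but pachytene RNP 2, round polysome 1, round polysome 2 and round RNP 2; limma adjusted p 0.051 to 0.087). Without both round libraries numbered 2 it was -1.53 ± 0.22 (limma adjusted p = 0.00239), and *Tex13a* was called too, at -1.83 ± 0.44 (limma adjusted p = 0.0356), against 4.9% of all genes (1.89% lower). With only round RNP 2 left out 3 members were called, against 3.75% of all genes. On FPKM as deposited the average of *Spata4* was -0.81 (limma adjusted p = 0.13), beside a median of all genes of 0.77. Restricted to transcripts with annotated introns it was -0.07 (limma adjusted p = 0.99).

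Of the 20 tested members with their highest level in elongating spermatids 8 (*Spata3*, *Spata4*, *Spata7*, *Spata18*, *Spata20*, *Spata21*, *Spata24* and *Tex13a*) had all polysome values below all RNP values there on the scaled values. Over all tested genes, whatever their stage of highest level, the share was 9.85%. The share among all genes highest in elongating spermatids was not computed. The class was chosen by a mean that includes these RNP values. *Spata20* had 229, 199 and 183 scaled FPKM in polysomes, against 661, 481 and 617 in RNPs, a difference of -1.51 ± 1.18 (limma adjusted p = 0.819). *Spata18* had 103, 54.8 and 48.9 in polysomes, against 186, 128 and 171 in RNPs, a difference of -1.28 ± 0.85 (limma adjusted p = 0.75). *Tex13a* had 11.6, 3.81 and 7.75 in polysomes, against 27.5, 22.5 and 27.1 in RNPs. In pachytene spermatocytes it was assembled in 1 of 3 polysome libraries, at 1.37 scaled FPKM, against 6.61, 0 and 6.66 in RNPs. *Spata6* had overlapping elongating fractions, with a difference of -0.07 ± 0.70. The summed level of the 8 elongating spermatid markers was lower in each elongating polysome library than in any elongating RNP library (sums given above). Prm1 took a large part of the RNP sums (846, 665 and 0 in elongating polysomes, against 19575, 8065 and 6568 in elongating RNPs). A transcript sharing junctions with more than 1 gene counts in full for each, and Prm2 had the same 846 in elongating polysome 1. The 0 of Prm1 stood beside 1550 for Prm2 in elongating polysome 3. Single markers such as Smcp overlapped between the fractions. The part of these marker differences in the members' values was not tested.

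*Tex9* and *Tex264* stood on the other side. *Tex9* had 48.3, 66.4 and 79.1 scaled FPKM in elongating polysomes, against 13.9, 15.3 and 38.6 in elongating RNPs, a difference of 1.60 ± 0.63 (limma adjusted p = 0.444). *Tex264* had 31.0, 31.1 and 32.4 in elongating polysomes, against 21.8, 20.1 and 24.9 in elongating RNPs, and 31.3, 28.9 and 26.0 in pachytene polysomes, against 21.8, 18.975 and 18.4 in pachytene RNPs. Neither pair of *Tex264* groups overlapped, with differences of 0.49 ± 0.37 and 0.52 ± 0.37 (limma adjusted p = 0.811 and 0.838). *Spata16* had 292, 325 and 128 in elongating polysomes, against 105, 107 and 126 in elongating RNPs, so its lowest polysome value lay just above its highest RNP value. The change of the fraction difference between stages was tested by interaction terms, and no member was called with limma in the 3 pairs of stages (0.00688%, 0% and 0.0344% of all genes passed). The only member with an unadjusted p under 0.05 was *Tex16*, between elongating spermatids and pachytene spermatocytes (2.45%, 2.81% and 3.76% of all genes, for round against pachytene, elongating against round and elongating against pachytene). Without both round libraries numbered 2 limma called none either (0.0424% of all genes for round against pachytene, 0.0141% for elongating against round and 0.0424% for elongating against pachytene), with 1, 2 and 3 members at an unadjusted p under 0.05 (4.70%, 3.55% and 5.44% of all genes).

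**Figure D4:**
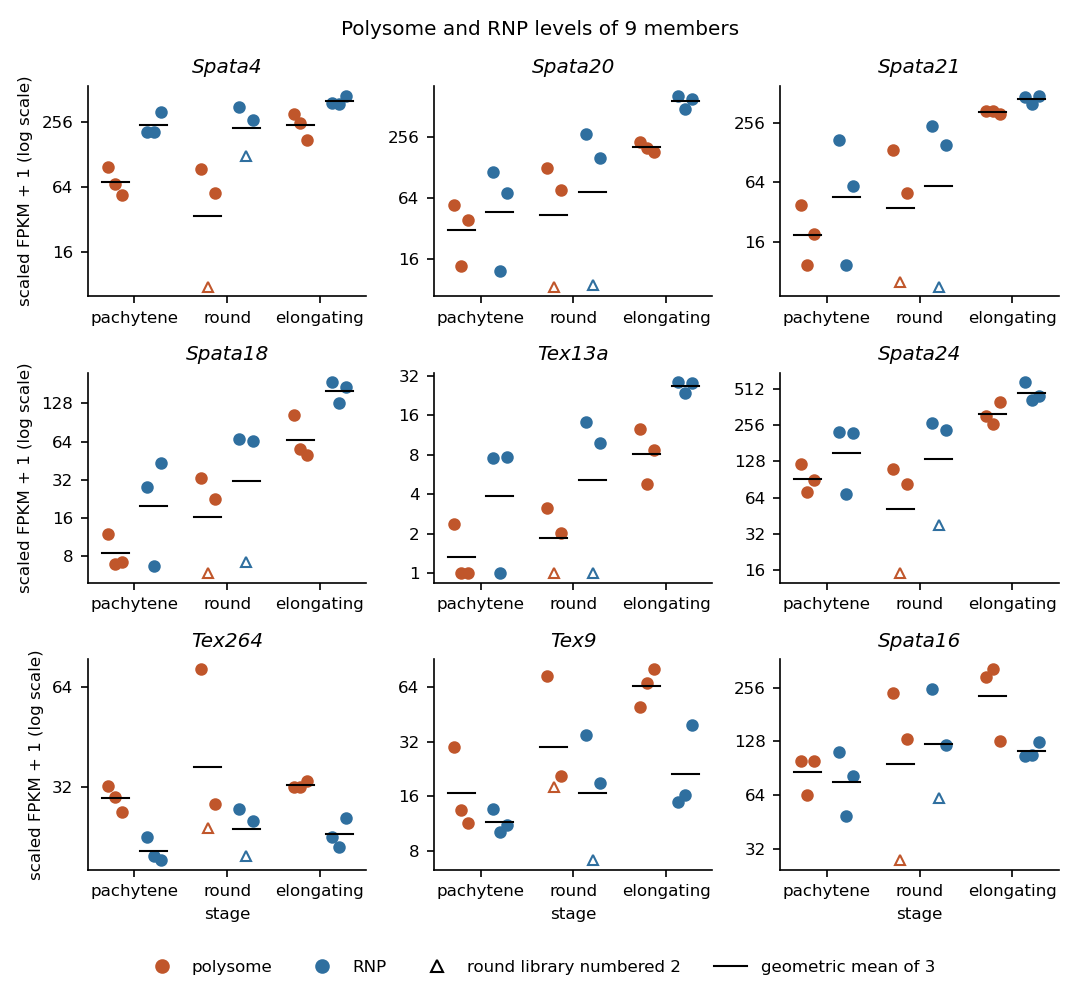
Levels of 9 members in each library by stage, on a log axis of scaled FPKM + 1, with polysome libraries in orange and RNP libraries in blue (lines: geometric mean of 3 libraries, open triangles: round libraries numbered 2). On these scaled values *Spata4* lay lower in polysomes than in RNPs at every stage (with FPKM as deposited not in elongating spermatids), *Spata20*, *Spata21*, *Spata18*, *Tex13a* and *Spata24* in elongating spermatids (as deposited not *Spata21* and *Spata24*), and *Tex264*, *Tex9* and *Spata16* lay higher in elongating polysomes.

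The study asked how 3′ UTR length relates to the fraction of an mRNA, so the assembled last exon was measured from the annotated last splice junction of each member to the end of the assembled transcript (geometric mean over transcripts, weighted by FPKM). An assembled end need not be a polyadenylation site. Pachytene polysome libraries held 43450 to 58653 assembled transcripts and pachytene RNP libraries 26773 to 38151. The part of read coverage in the measured lengths was not tested. An exact permutation test of 3 libraries against 3 cannot go below p = 0.1, so groups are described as overlapping or not. Of the 22 members with a value in all pachytene libraries 2 had last exons at least 1.5 times longer in polysomes without overlap, against 12.1% of 5832 coding genes. In round spermatids it was 1 of 23 (7.38% of 6721 genes) and in elongating spermatids 2 of 28 (9.24% of 6666 genes). None was shorter by that rule (0%, 0% and 0.09% of genes).

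*Tex22* (chr12:114312713-114327128, plus strand, with an annotated 3′ UTR of 21 nucleotides) had longer last exons in polysomes. Its last exon measured 1241, 1360.0 and 1642 nucleotides in elongating polysomes, against 488, 788 and 732 in elongating RNPs. In round spermatids it measured 3030.0, 743 and 734 in polysomes, against 453, 437 and 681 in RNPs, and in pachytene spermatocytes 3050.0, 3029 and 3033 in polysomes, against 3029, 786 and 842 in RNPs. The polysome values exceeded all RNP values in round and elongating spermatids, and in pachytene spermatocytes RNP library 1 had the long form as well. In the 5 libraries with the long form (all pachytene polysome libraries, pachytene RNP 1 and round polysome 1) the highest transcript ended between positions 114329719 and 114329740 of chromosome 12, against an annotated gene end at 114327128. The polyadenylation signal AATAAA lay in the last 40 bases of this transcript only in pachytene polysome 1 and pachytene polysome 3. The elongating polysome values were also all below those of pachytene polysomes, as they were for *Tex9* and *Spata16*, 3 of 27 members against 14.9% of 7563 genes.

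*Tex9* (chr9:72308909-72339965, minus strand) had last exons of 209, 499 and 361 nucleotides in elongating polysomes, against 2976, 3641 and 4399 in pachytene polysomes. In RNPs they measured 203, 281 and 334 in elongating spermatids and 224, 3244 and 203 in pachytene spermatocytes, where only library 2 had a long one. No AATAAA was found before the end in pachytene polysomes or in pachytene RNP 2. It was found in elongating polysome 1 and elongating RNP 1. *Spata16* had 339, 341 and 319 nucleotides in elongating polysomes, against 1141, 715 and 1006 in pachytene polysomes, whose values also exceeded the 661, 306 and 384 nucleotides of pachytene RNPs. For *Spata16* the signal was found only in round RNP 3, elongating RNP 1 and elongating RNP 2. *Spata2* had 3300.0, 3440.0 and 3443 nucleotides in pachytene polysomes, against 630.0, 3269 and 98.0 in pachytene RNPs. For *Tex19.2* the elongating groups did not overlap either, but the values were 1476, 1475 and 1476 nucleotides in polysomes, against 1471 and 1465 in RNP libraries 2 and 3, so the ratio rested on the far shorter RNP library 1, which also made it the 1 of 20 members with shorter last exons in elongating than in pachytene RNPs (3.51% of 5331 genes). In *Spata2* the ratio rested on RNP libraries 1 and 3. Longer last exons in elongating than in pachytene spermatocytes were found in 0 members in polysomes (0.873% of genes) and 0 in RNPs (0.732%).

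**Figure D5:**
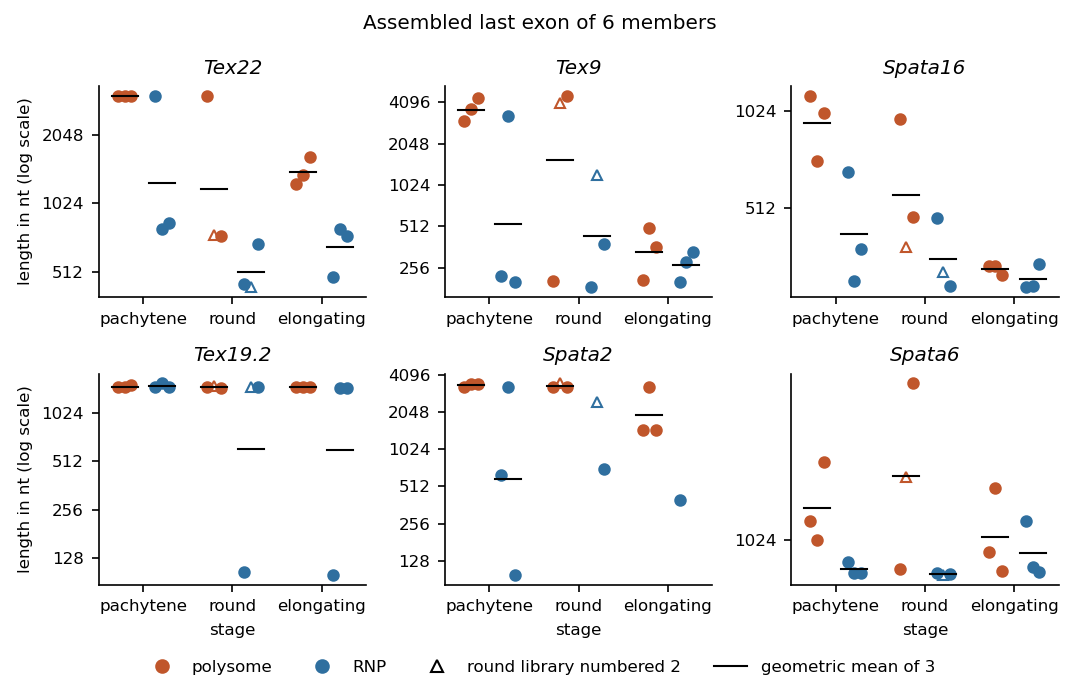
Length of the assembled last exon of 6 members in each library by stage, in nucleotides on a log axis, with polysome libraries in orange and RNP libraries in blue (lines: geometric mean where all 3 libraries had a value, open triangles: round libraries numbered 2). *Tex22* fell into long (about 3030) and shorter values, and the elongating polysome values of *Tex9* and *Spata16* lay below those of pachytene polysomes.

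The tested members had a median of 9 exons, as had all 13651 tested coding genes, and a median coding length of 1332 nucleotides, against 1392. Their annotated 3′ UTRs were short, with a median of 199 nucleotides, against 767 for all tested coding genes. These lengths are those of the annotated transcript with the longest coding sequence. They include 0 nucleotides for *Spata18*, 14 for *Tex10*, 20 for *Tex9*, 21 for *Tex22* and 25 for *Spata24*. Transcripts of *Tex22* were assembled past its annotated end, and whether the gene models are complete was not tested. Across the 33 members the polysome minus RNP difference and the annotated 3′ UTR length correlated with Spearman's rho of 0.21, 0.25 and 0.07 in the 3 stages. Members measured in the same 18 libraries are not independent, and no test was made. 4 of the 33 tested members (12.1%) were X-linked, against 3.90% of all tested coding genes.

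Promoters from 250 bases before to 50 bases after the start were available for 27 members from RefSeq (GRCm38.p6, with 27025 genes in all) and were searched on both strands. The cyclic AMP response element, bound in spermatids by the regulator CREM, was searched as TGACGTNA and lay in 2 promoters of members (7.41%), against 3.36% of all genes. These were *Spata6* and *Spata7*, and their sites are shown in capitals.
Spata6 promoter, chr4:111719865-111719894, plus strand: cactcataactTTACGTCAcagaagagccg
Spata7 promoter, chr12:98628124-98628153, plus strand: tccctgtgttgTGACGTCAtaatctgcagc
The centre of the site lay 130 bases before the start in *Spata6* and 3 bases before it in *Spata7*. The letters AACNGTC, bound by MYB factors such as the meiotic regulator MYBL1, lay in 4 promoters of members (14.8%), against 9.17% of all genes (*Spata4*, *Spata7*, *Spata16* and *Tex21*). The letters GTTGCC, found in RFX sites, lay in 3 (11.1%), against 14.1% of all genes. A match of letters describes the sequence and not binding.

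A list of 32 symbols was made of known partners or complex members of Spata and Tex products. It includes those of SPATA33 and TEX40, whose genes are not among the members here. Of these 32 symbols 30 were tested. In the comparisons between stages and within stages 1 was called, in elongating against pachytene polysomes (3.91% of all genes), *Ace*, the angiotensin-converting enzyme, which has a germ cell form and is linked to TEX101. It had 389.5, 239.6 and 212 scaled FPKM in elongating polysomes, against 44.7, 5.28 and 10.5 in pachytene polysomes, a difference of 4.19 ± 1.12 (SE, n = 3 each, limma adjusted p = 0.048). In the averaged fraction comparison 1 listed gene was called (1.8% of all genes), *Msh5*, a meiotic crossover gene listed for TEX11, with a difference of -1.66 ± 0.36 (SE, limma adjusted p = 0.029), the same direction as *Spata4*. Neither call was recomputed with libraries left out.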

How the data were processed

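RNA of 18 libraries of the 6 groups was analysed. Per the methods, the authors used the FASTX-Toolkit for trimming, TopHat2 for alignment to mm9 and Cufflinks for assembly (exact versions not given in the sources used here). Each file holds the assembly of 1 library. The paper normalized RNP and polysome reads by regression on control mRNAs checked by qPCR, and set geometric and quantile normalization beside it. The regression was not repeated here. The deposited values are FPKM for each assembled transcript, not normalized between libraries, with no counts.

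Here the FPKM of a gene was the sum over spliced transcripts sharing a junction with a GENCODE vM1 gene on its strand. A transcript sharing junctions with more than 1 gene counted in full for each. The sum was divided by a median-ratio factor from 7147 genes with FPKM above 1 in every library. Genes reaching a scaled FPKM of 1 in 3 or more libraries entered limma 3.58.1 (R 4.3.3, trend) on log2(scaled FPKM + 1), with 6 groups and no block. Python 3.11.15 with biopython 1.88 made the other measures.

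Named were called members, the 12 highest, the leading members of each stage class and those of known role. Members and lists were chosen with earlier results of these data known. Alternatives were other scalings, filters, pseudocount and gene values, fits on the libraries compared, the replicate block, and libraries left out. Deviations of libraries with the same number correlated above 0.1 in every pair for both round fractions (0.20 to 0.66) and for round against pachytene RNPs (0.14 to 0.60), so these were taken as paired. The highest of these correlations, 0.66 and 0.60, were those of the libraries numbered 2. The pairing entered only the alternative fit with the replicate block. The SE and adjusted p of the Results come from fits without a block. The labels do not say what a number marks.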

Additional observations from a re-analysis of the deposited data

How the results depend on the processing

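With the replicate block no member was called in either paired comparison, as without it. In the unpaired comparisons it called 10 members between elongating spermatids and pachytene spermatocytes in polysomes and 9 in RNPs, 4 between elongating and round spermatids in polysomes, and 3 for the fraction difference averaged over stages. Shares or counts over all genes are given for some settings only. The other member counts show how the calls moved and are not set against a background. For elongating minus pachytene in polysomes (2 members) the count was 1 with quantile normalization, 13 with only the libraries compared, 0 with only annotated intron chains, 5 with length-weighted values, 15 without both round libraries numbered 2 (13.9% of all genes), and 11 without these and the pachytene libraries numbered 2. In RNPs (0 members) it was 1 with only the libraries compared, 2 with length-weighted values, 12 without both round libraries numbered 2 (11.4% of all genes) and 7 without the 4 libraries. Between elongating and round spermatids in polysomes (0 members) it was 1 without the 4 libraries. For the pachytene fractions (0 members) it was 2 with FPKM as deposited. For the averaged fraction difference (1 member) it was 7 with FPKM as deposited (4573 of all genes), 0 with only annotated intron chains, 2 without both round libraries numbered 2 (4.9% of all genes) and 8 without the 4 libraries, all lower in these last 2 settings. Over all genes, elongating minus pachytene in polysomes called 569 genes, and 2481 with only the libraries compared, 1439 with the block, 121 with annotated chains, 1289 with length-weighted values and 1961 without both round libraries numbered 2. The pachytene fractions differed in 27 genes (17 higher), and in 996 (972 higher) with FPKM as deposited. The averaged fraction difference called 262 genes (148 higher), and 4573 (4508 higher) with FPKM as deposited. The call of *Spata6* was lost with quantile normalization (limma adjusted p = 0.062) and annotated chains (0.438), that of *Tex19.2* with annotated chains (0.127), and that of *Spata4* also with length-weighted values (0.0859). The causes were not tested.

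With 1 library left out the counts ran from 0 to 8 between elongating spermatids and pachytene spermatocytes in polysomes, from 0 to 6 in RNPs, from 0 to 2 between elongating and round spermatids in polysomes and from 0 to 3 for the averaged fraction difference, and were 0 in the other 9 comparisons. Of 12802 recomputed values of single members none changed the direction of a call, 129 gained significance and 36 lost it. Without a minimum ratio, last exons of 5 members in pachytene spermatocytes (23.3% of all genes), 3 in round spermatids (15.8%) and 3 in elongating spermatids (18.3%) did not overlap between fractions, and those of 7 in polysomes (26.9%) and 4 in RNPs (11.4%) did not overlap between elongating and pachytene. The settings for the 4 libraries, the averaged difference and the last exons were added after the data were seen. Low members such as *Spata13* and *Tex24* had 0 in several libraries, and the depth is unknown.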
